A study of Mus musculus with 11 samples.

Results

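De novo lipogenesis, the making of fatty acids from acetyl-CoA, was followed through 10 genes in hepatocytes of mice with and without liver Xbp1. The genes were chosen by name, with earlier results of these data known: Fasn, Acaca, Acacb, Acly, Acss2, Scd1, Elovl6, Me1, Thrsp and Mlxipl. They are 10 of the 54232 gene identifiers in the count tables. All 10 passed the filter on low counts that left 13303 genes for testing. Xbp1 encodes a transcription factor of the unfolded protein response, the program by which a cell adjusts its secretory machinery. Adult male C57BL/6 mice were either Xbp1fl/fl controls, with floxed Xbp1 alleles, or Xbp1LKO mice, in which Cre driven by the albumin promoter removes Xbp1 in hepatocytes. For at most 6 weeks both genotypes ate standard chow or the HFS diet, a high fat sugar regimen that joined a Western diet to fructose and glucose in the drinking water. Hepatocytes were purified on Percoll after a short fast, and the comparison was made over 3 Xbp1fl/fl chow, 2 Xbp1LKO chow, 3 Xbp1fl/fl HFS and 3 Xbp1LKO HFS libraries. A chow library held the cells of 1 mouse and an HFS library those of 2 mice pooled.

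Lipogenesis begins in the cytosol, where ATP citrate lyase (Acly) and acetyl-CoA synthetase (Acss2) supply acetyl-CoA. Acetyl-CoA carboxylase (Acaca and Acacb) turns it into malonyl-CoA, fatty acid synthase (Fasn) builds palmitate, Elovl6 lengthens palmitate, Scd1 places a double bond in the chain, and malic enzyme (Me1) is a source of NADPH. In liver the program follows feeding, with insulin acting largely through SREBP-1c (from Srebf1) and sugars through ChREBP (from Mlxipl), while Thrsp encodes a small protein that promotes lipogenesis.

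Regulatory sequence just upstream of the start site is shown for Acss2, Acly and Fasn, 3 genes that were lower in Xbp1LKO hepatocytes on chow, and for Mlxipl, which did not pass the test. The sequences are from RefSeq (build GRCm38.p6), run 5′ to 3′ on the strand of the gene and end at the base before the start. Mlxipl has an upstream start and a second one 17001 bases further downstream, and both are given. Capitals mark TCACNCCAC (a sterol regulatory element pattern), CACGTG (an E-box), CCAAT and GGGCGG, on either strand.
Acss2, chr2:155517793-155518042, plus strand: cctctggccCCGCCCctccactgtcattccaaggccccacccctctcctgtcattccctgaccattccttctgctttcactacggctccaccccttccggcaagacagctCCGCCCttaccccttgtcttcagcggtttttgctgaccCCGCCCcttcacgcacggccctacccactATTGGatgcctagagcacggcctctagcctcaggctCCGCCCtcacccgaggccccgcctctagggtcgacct
Acly, chr11:100528001-100528250, minus strand: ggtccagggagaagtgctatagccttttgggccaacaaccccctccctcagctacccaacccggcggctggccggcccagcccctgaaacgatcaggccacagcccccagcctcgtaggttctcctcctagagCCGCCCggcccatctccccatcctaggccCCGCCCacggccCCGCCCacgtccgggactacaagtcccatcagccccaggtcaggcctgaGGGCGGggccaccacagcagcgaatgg
Fasn, chr11:120824548-120824797, minus strand: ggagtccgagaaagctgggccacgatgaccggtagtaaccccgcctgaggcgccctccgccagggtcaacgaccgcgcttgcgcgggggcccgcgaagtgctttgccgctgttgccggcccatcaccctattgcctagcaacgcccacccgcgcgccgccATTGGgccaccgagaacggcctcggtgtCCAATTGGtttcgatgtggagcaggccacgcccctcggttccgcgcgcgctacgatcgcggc
Mlxipl, upstream start, chr5:135089640-135089889, plus strand: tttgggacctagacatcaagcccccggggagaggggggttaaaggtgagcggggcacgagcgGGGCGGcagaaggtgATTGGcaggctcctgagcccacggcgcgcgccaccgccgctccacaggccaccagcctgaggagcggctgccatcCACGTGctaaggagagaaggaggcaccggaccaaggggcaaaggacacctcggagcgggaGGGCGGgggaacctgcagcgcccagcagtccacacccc
Mlxipl, downstream start, chr5:135106641-135106890, plus strand: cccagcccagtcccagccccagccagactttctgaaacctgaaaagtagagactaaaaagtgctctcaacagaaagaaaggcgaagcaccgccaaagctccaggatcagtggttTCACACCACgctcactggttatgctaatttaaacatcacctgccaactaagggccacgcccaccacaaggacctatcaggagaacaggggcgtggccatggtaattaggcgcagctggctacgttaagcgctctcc

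The motifs were searched from 250 bases before to 50 bases after the start, in 11 windows that matched 9 of the 10 genes. The Acaca and Acacb windows and the downstream windows of Me1 and Mlxipl lie inside the annotated gene, away from its first base. Matches in them do not describe the outermost promoter of the gene. Of the 11 windows only the downstream Mlxipl window held TCACNCCAC, which begins 136 bases before the start, against 1.24% of all 32851 windows of that length. CACGTG was found in the upstream Mlxipl window alone, 98 bases before the start, against 7.15% of all windows. CCAAT was present in 7 of the 11 windows, against 37.4% of all. In Fasn it occurred at 90, 62 and 59 bases before the start, the last 2 matches overlapping on opposite strands. GGGCGG was present in 4 windows, of Acss2, Acly, Mlxipl and Me1, against 35.7% of all windows. CCACG, which is not capitalised and can overlap the other patterns, was present in 5 windows, against 32.8% of all. The longer carbohydrate response element of ChREBP was in none of the 11 windows and in 0.0457% of all. A match of letters is a description and not a bound site.

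Values are CPM, counts of a gene relative to the TMM-scaled total of its library, and the test is edgeR's quasi-likelihood test across all 13303 genes, called at an adjusted p under 0.05. The libraries held 19191032 to 23888401 counts. The labels were checked on Xbp1 itself, which read 194, 200.3 and 221 CPM in Xbp1fl/fl and 95.7 and 128 CPM in Xbp1LKO on chow, and 301, 295 and 242 CPM against 117, 97.3 and 135 CPM on the HFS diet. Every Xbp1LKO library lay below every Xbp1fl/fl library, although counts over the whole gene do not isolate the deleted exon. The pair of Xbp1LKO chow libraries differed most of all replicate pairs, and replicate 2 read lower than replicate 1 in 9 of the 10 genes. Summed hepatocyte markers (14 genes) were 147847 to 180975 CPM in Xbp1fl/fl and 47099 to 81696 CPM in Xbp1LKO on chow, and 129941 to 147370 against 65857 to 96760 CPM on HFS. Alb and Serpina1a were called lower on chow and Apoa1 on HFS, beside 3.02% and 2.16% of all genes called lower. Without Alb the sums were 59462 to 61608 against 33078 to 47437 CPM on chow and 64693 to 65599 against 36073 to 45282 CPM on HFS, so both genotypes stayed apart. The part of this in the lipogenic values was not tested, and in bulk libraries fewer cells of a type and less RNA per cell cannot be told apart. Markers of other liver cells were far below these levels, but their sums also moved with the groups. Endothelial markers summed to 47.2 to 122 CPM in Xbp1fl/fl and 29.8 and 37.7 CPM in Xbp1LKO on chow, and to 94.0 to 161 against 77.9 to 130 CPM on HFS. Stellate markers summed to 17.7 to 60.02 against 13.3 and 15.6 CPM on chow and to 30.4 to 54.7 against 35.8 to 74.3 CPM on HFS. On chow both sums were lower in Xbp1LKO without overlap (median log2 fold change -1.37 over 10 endothelial and -1.12 over 8 tested stellate genes), and in Xbp1LKO both were higher on HFS than on chow without overlap (medians 1.62 and 2.22). Macrophage markers summed to 19.9 to 87.2 against 23.8 and 34.4 CPM on chow and to 38.8 to 56.7 against 55.8 to 101 CPM on HFS. In Xbp1LKO the macrophage sum too was higher on HFS than on chow without overlap (median 1.31 over 12 genes). No gene of these 3 lists was called in any comparison, while of 4 tested cholangiocyte markers Sox9 and Wfdc2 were called lower on chow and Wfdc2 on HFS. The part of these cells in the lipogenic values was not tested. Blood cell markers summed to 118 to 182 CPM with no call. Adipocytes share this pathway. Of their 9 markers Lep had no count in any library, Adipoq, Plin1 and Retn did not exceed 0.147 CPM, and none of the 4 tested was called in any comparison. Summed levels of 23.6 to 50.1 CPM came mostly from Lipe and Adrb3, but Cfd, at 0.110 to 0.597 CPM on chow, reached 17.6 CPM in Xbp1fl/fl HFS replicate 3 and 6.81 CPM in Xbp1LKO HFS replicate 2.

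On chow, lipogenic transcripts were lower in Xbp1LKO than in Xbp1fl/fl hepatocytes at several steps. Acly, Acss2, Fasn and Scd1, which cover acetyl-CoA supply, chain synthesis and desaturation, were called lower, by 3.36-, 2.57-, 2.30- and 7.37-fold. These 4 of 10 stand beside 3.02% of all tested genes called lower in the same comparison. The set of 10 was chosen with earlier results of these data known. No member was called higher, beside 1.73% of all genes. The groups did not overlap, with Xbp1LKO lower, for 7 of the 10 genes, beside 15.9% of all genes. The median log2 fold change of the 10 genes was -1.07, beside 0.002 for all genes. On HFS, Scd1 was the member called lower, by 4.30-fold. That is 1 of 10 beside 2.16% of all genes called lower, and no member was among the 1.92% called higher. The median of the 10 genes was -0.69, beside 0.008 for all genes, and again 7 did not overlap in the lower direction, beside 12.5% of all genes. Overlap was judged on TMM-scaled CPM and was not counted with library totals. The TMM factors were 0.878 to 0.938 in Xbp1fl/fl and 1.05 to 1.19 in Xbp1LKO libraries.

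**Figure D1:**
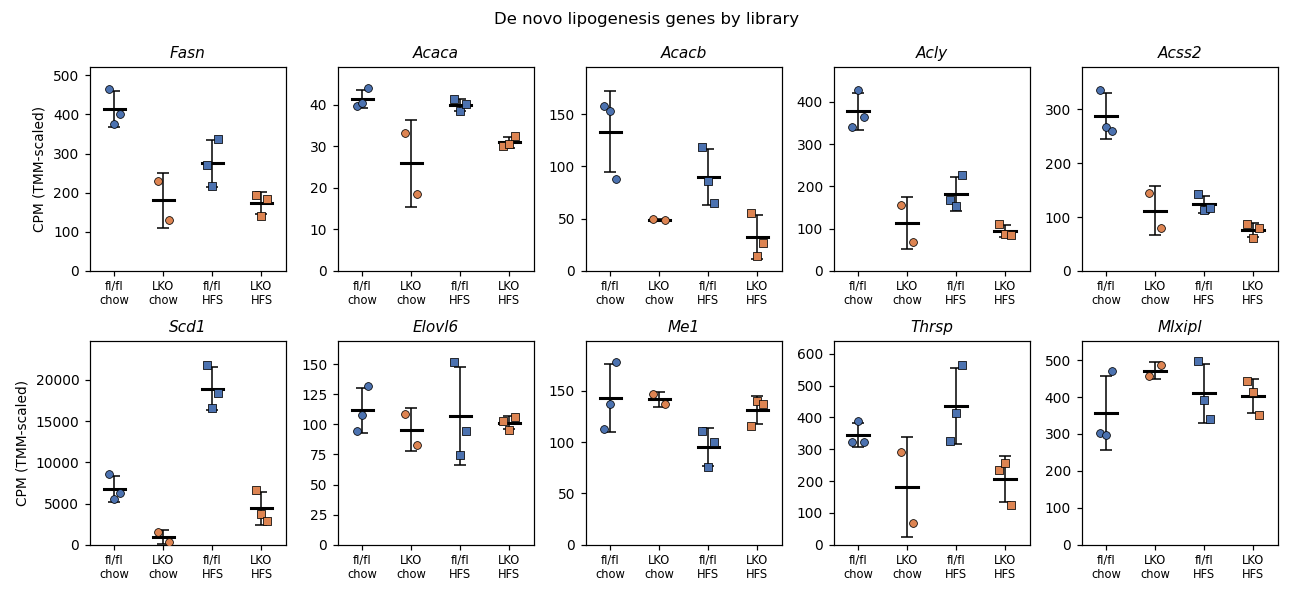
CPM (TMM-scaled, linear axis from 0) of the 10 genes, with 1 point per library, circles for chow and squares for HFS, blue for Xbp1fl/fl and orange for Xbp1LKO. Black bars are the group mean and SD (n = 3, or 2 for Xbp1LKO on chow); Scd1 shows the groups furthest apart, while Mlxipl lies at 297 to 498 CPM in all 11 libraries.

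Both genes that supply acetyl-CoA were called lower in Xbp1LKO hepatocytes on chow. Acly (ENSMUSG00000020917, chr11:100476353-100528000, minus strand) read 339.8, 427 and 365 CPM in Xbp1fl/fl and 156 and 68.6 CPM in Xbp1LKO on chow. The Xbp1LKO libraries were both below the lowest control. The log2 fold change was -1.75 ± 0.31 (SE, adjusted p = 0.010). On HFS, Acly was 167, 152 and 227 CPM in Xbp1fl/fl and 109.7, 87.2 and 84.1 CPM in Xbp1LKO, again without overlap, and the log2 difference of -0.96 ± 0.26 did not pass (adjusted p = 0.068). Acss2 (ENSMUSG00000027605, chr2:155517948-155585724, plus strand), which uses acetate, read 336, 267 and 259 CPM against 144 and 80.0 CPM on chow. The difference was -1.36 ± 0.25 on the log2 scale (adjusted p = 0.012). On HFS the Acss2 libraries were at 142, 112 and 117 CPM in Xbp1fl/fl and at 87.6, 60.8 and 79.4 CPM in Xbp1LKO (log2 fold change -0.71 ± 0.22, adjusted p = 0.099). Acss2 shares 395 exon bases with Gss on the opposite strand, a gene with 1165 to 2416 counts per library, so reads from those bases are uncertain where counting ignored strand.

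Malonyl-CoA is made by a pair of isoenzymes, of which Acaca serves fatty acid synthesis in the cytosol and Acacb lies at the mitochondrial membrane and restrains fatty acid oxidation. Acaca (ENSMUSG00000020532, chr11:84129672-84401651, plus strand) was at 39.8, 40.4 and 43.9 CPM in Xbp1fl/fl and 33.2 and 18.5 CPM in Xbp1LKO on chow. Its HFS values were 41.3, 38.4 and 40.2 CPM against 29.9, 30.5 and 32.4 CPM. In these TMM-scaled values Xbp1fl/fl libraries lay within 38.4 to 43.9 CPM on both diets and every Xbp1LKO library was below them. The log2 differences were -0.68 ± 0.19 on chow (adjusted p = 0.067) and -0.37 ± 0.16 on HFS (adjusted p = 0.28), neither called. Scaled to library totals, the Acaca differences were -0.37 on chow and -0.11 on HFS, with the medians of all genes at 0.33 and 0.27. Acacb (ENSMUSG00000042010, chr5:114146535-114250761, plus strand) read 158, 153 and 88.2 CPM in Xbp1fl/fl and 49.3 and 48.2 CPM in Xbp1LKO on chow, and 118, 86.1 and 64.8 CPM against 55.5, 13.8 and 27.0 CPM on HFS. The groups were apart on both diets but the controls themselves were spread widely. The Acacb log2 fold changes of -1.45 ± 0.48 (adjusted p = 0.11) and -1.49 ± 0.41 (adjusted p = 0.073) did not pass.

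Fasn and Scd1 were lower in Xbp1LKO on chow, whereas the elongase Elovl6 overlapped between genotypes. Fasn (ENSMUSG00000025153, chr11:120805846-120824547, minus strand) read 464, 375 and 402 CPM in Xbp1fl/fl and 229.9 and 130.2 CPM in Xbp1LKO on chow. All Xbp1LKO libraries were below the controls, with a log2 fold change of -1.20 ± 0.26 (adjusted p = 0.024). On HFS the libraries were at 272, 217 and 337 CPM against 195, 141 and 185 CPM, a difference of -0.67 ± 0.22 on the log2 scale that was not called (adjusted p = 0.13). Scd1 (ENSMUSG00000037071, chr19:44394455-44407879, minus strand), the stearoyl-CoA desaturase that makes oleate and palmitoleate, read 8541, 5563 and 6259 CPM in Xbp1fl/fl and 1493 and 349.9 CPM in Xbp1LKO on chow. On HFS it was at 21769.5, 16638 and 18424 CPM in Xbp1fl/fl and 6634, 3719 and 2870.0 CPM in Xbp1LKO. The highest Xbp1LKO library on HFS was close to the middle control on chow. The genotype differences were -2.88 ± 0.56 (adjusted p = 0.015) on chow and -2.10 ± 0.46 (adjusted p = 0.030) on HFS. Scd1 has close paralogs in Scd2, Scd3 and Scd4, between which short reads can be misassigned. Elovl6 (ENSMUSG00000041220, chr3:129532355-129638495, plus strand) read 94.8, 108 and 132 CPM against 109 and 82.8 CPM on chow, and 152, 74.5 and 94.3 CPM against 103, 95.6 and 106 CPM on HFS. The ranges overlapped on both diets, with log2 differences of -0.22 ± 0.26 and -0.08 that turned to 0.10 and 0.18 when scaled to library totals. It shares 34 exon bases with the antisense gene Gm35986, which had 40 to 169 counts.

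Neither Me1 nor Thrsp was called for genotype on either diet. Me1 (ENSMUSG00000032418, chr9:86581371-86695953, minus strand) was at 113, 138 and 178 CPM in Xbp1fl/fl and 147 and 137 CPM in Xbp1LKO on chow, a difference near 0 (log2 -0.01 ± 0.20, or 0.32 scaled to library totals). On HFS it was at 111, 75.3 and 99.7 CPM against 116, 141 and 138 CPM, so here every Xbp1LKO library was above the controls. That is 1 of 10 genes higher without overlap, beside 13.6% of all genes, and the log2 difference of 0.46 ± 0.18 did not pass (adjusted p = 0.20). Scaled to library totals in place of TMM factors, Me1 on HFS was called higher, at 0.72 (adjusted p = 0.032), a scaling under which the median of all genes was itself at 0.27. Thrsp (ENSMUSG00000035686, chr7:97412938-97417730, minus strand) read 321, 388 and 324 CPM in Xbp1fl/fl and 291 and 69.0 CPM in Xbp1LKO on chow, and 327, 414 and 564 CPM against 235, 258 and 125 CPM on HFS. The groups were apart on both diets, but the pair of Xbp1LKO chow libraries differed 4.21-fold. The Thrsp log2 fold changes were -0.94 ± 0.49 (adjusted p = 0.33) and -1.08 ± 0.43 (adjusted p = 0.22), neither called.

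Mlxipl, which encodes ChREBP, was not called in any comparison. The gene (ENSMUSG00000005373, chr5:135089890-135138382, plus strand) read 301, 297 and 471 CPM in Xbp1fl/fl and 456 and 487 CPM in Xbp1LKO on chow. On HFS it read 498, 393 and 341 CPM in Xbp1fl/fl and 444, 414 and 352 CPM in Xbp1LKO. Values overlapped between genotypes on either diet, with log2 differences of 0.40 ± 0.22 (adjusted p = 0.35) and -0.02, the second of which was 0.23 when scaled to library totals. Scaled to library totals, the chow difference was called higher at 0.73 (adjusted p = 0.039), with the median of all genes at 0.33. The gene has a long ChREBP-alpha and a shorter ChREBP-beta form from different first exons, which counts per gene do not separate, and ChREBP is also regulated as a protein, which was not measured.

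**Figure D2:**
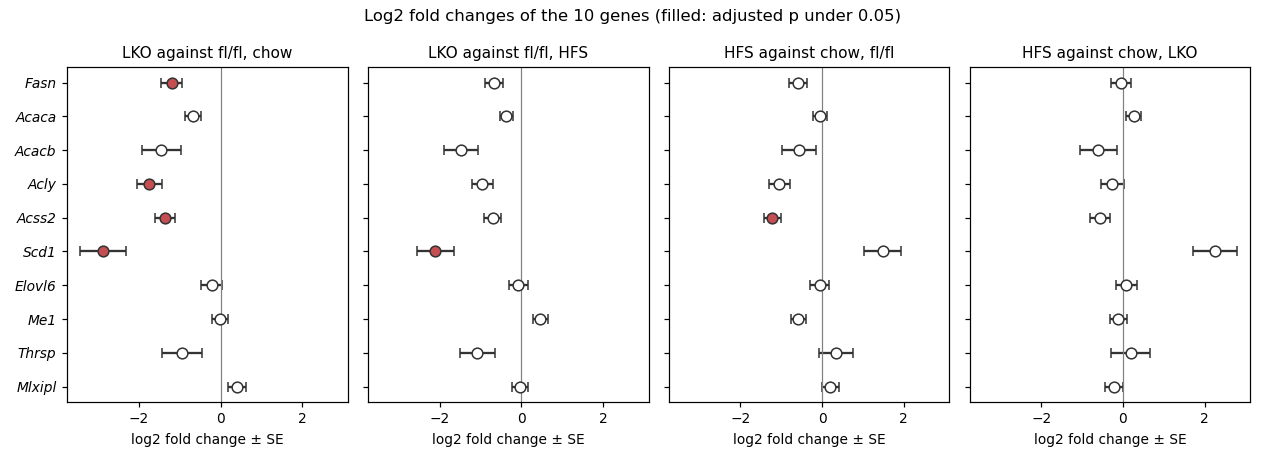
Log2 fold change with its standard error (x axis) of the 10 genes in the 4 comparisons, from edgeR's quasi-likelihood fit, with filled points for an adjusted p under 0.05. Filled points are at Fasn, Acly, Acss2 and Scd1 on chow, Scd1 on HFS and Acss2 for diet in Xbp1fl/fl; the Scd1 points for diet lie to the right of 0 in both genotypes but are open.

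The chow calls rested on Xbp1LKO replicate 2. Without it edgeR called none of the 10 genes, with log2 fold changes of -0.85 for Fasn, -1.28 for Acly, -0.999 for Acss2 and -2.19 for Scd1 and adjusted p values of 0.22, 0.066, 0.10 and 0.073, and the share of all genes called lower was 0.282%. Without Xbp1LKO replicate 1, 6 were called, Acaca (-1.16) and Thrsp (-2.32) being added, beside 3.03% of all genes called lower, and without Xbp1fl/fl replicate 1 Fasn was lost (adjusted p = 0.057). Scd1 on HFS lost its call without any 1 of 5 libraries, the 3 Xbp1fl/fl libraries and Xbp1LKO replicates 2 and 3 (log2 -1.87 to -2.19, adjusted p 0.060 to 0.14), and kept it without Xbp1LKO replicate 1 (-2.52), where Acacb was also called (-2.14). Over all genes, 543 were called on HFS with every library. In those 5 fits 184 to 285 were called, and without Xbp1LKO replicate 1 532 were called. DESeq2, the tool used in the study, called 5 genes lower on each diet, beside 5.12% of all genes on chow and 3.93% on HFS: Acaca was added on chow, and Fasn, Acacb, Acly and Acss2 joined Scd1 on HFS.

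The diet comparisons asked how the same genes differed between HFS and chow within each genotype, and they share their libraries with the genotype comparisons. In Xbp1fl/fl hepatocytes Acss2 was lower on HFS, by 2.32-fold (log2 -1.22 ± 0.22, adjusted p = 0.045), and was the 1 member called, beside 0.293% of all genes called lower. Its HFS libraries at 112 to 142 CPM lay below the chow libraries at 259 to 336 CPM. Fasn, Acly and Me1 were also lower without overlap, which makes 4 of 10 genes beside 7.34% of all genes. Their log2 differences were -0.59 (adjusted p = 0.44), -1.05 (adjusted p = 0.18) and -0.59 (adjusted p = 0.31). Scd1 went the other way, with every HFS library above every chow library and a 2.79-fold higher level that did not pass (log2 1.48 ± 0.45, adjusted p = 0.31). That is 1 of 10 genes higher without overlap, beside 6.33% of all genes. The Acss2 call was lost without any 1 of the 6 Xbp1fl/fl libraries (log2 -1.09 to -1.33, adjusted p 0.068 to 0.23).

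In Xbp1LKO hepatocytes no member was called for diet by edgeR, beside 0.0601% of all genes, with 2 of 10 at an unadjusted p under 0.05 beside 12.7% of all genes. DESeq2 called 1, Scd1, as higher, beside 1.1% of all genes. Scd1 was 4.78-fold higher on HFS (log2 2.26 ± 0.54, adjusted p = 0.19), and its libraries did not overlap. With 1 library left out, the log2 difference of Scd1 ranged from 1.57 to 3.65, the highest being without Xbp1LKO chow replicate 1. The range of Fasn on HFS, 141 to 195 CPM, lay inside its chow range of 130.2 to 229.9 CPM. Acly, Acss2 and Acacb had log2 differences of -0.26, -0.56 and -0.60 and overlapped. Mlxipl was lower on HFS without overlap, at a log2 difference of -0.22 (adjusted p = 0.71). These are 1 of 10 genes higher and 1 lower without overlap, beside 16.7% and 14.4% of all genes.

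Whether the genotype difference itself changed with diet was tested as an interaction. None of the 10 genes was called by edgeR or DESeq2, and the percentage called by edgeR over all genes was 0. At an unadjusted p under 0.05 there were 0 of 10, beside 6.13% of all genes. The log2 interaction was 0.79 for Acly, 0.65 for Acss2, 0.54 for Fasn and 0.78 for Scd1, each positive and with adjusted p values of 0.82, 0.82, 0.86 and 0.90. The calls on chow alone therefore do not show a difference between diets.

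Scd1 stood apart from the other genes in how much of the library it took. The 10 genes together held 0.681% to 0.995% of all counts in Xbp1fl/fl and 0.175% and 0.338% in Xbp1LKO on chow, and 1.66% to 2.21% against 0.449% to 0.840% on HFS. Leaving out Scd1, the other 9 summed to 2168 to 2264 CPM against 1121 and 1615 CPM on chow, and to 1563 to 1885 against 1129 to 1375 CPM on HFS. In TMM-scaled CPM every Xbp1LKO library thus lay below every control library of its diet without Scd1 as well. As shares of all counts, the other 9 genes overlapped between genotypes on HFS. The count of Scd1 relative to Fasn in the same library, a ratio that does not depend on scaling, was 14.8 to 18.4 in Xbp1fl/fl and 2.69 and 6.49 in Xbp1LKO on chow. On HFS the ratio was 54.7 to 80.1 in Xbp1fl/fl and 15.6 to 34.1 in Xbp1LKO. The ratios of Xbp1LKO libraries on HFS overlapped those of Xbp1fl/fl libraries on chow.

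**Figure D3:**
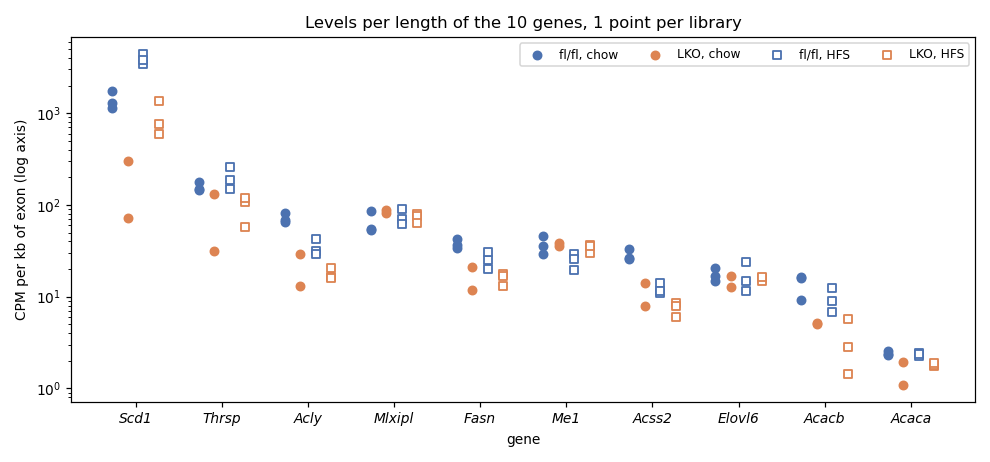
Level per length (CPM per kb of merged exons, log axis) of the 10 genes, 1 point per library, with filled circles for chow, open squares for HFS, blue for Xbp1fl/fl and orange for Xbp1LKO. Genes run from the highest to the lowest median in Xbp1fl/fl chow libraries, from Scd1 at 1279 to Acaca at 2.37 CPM per kb.

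Per kb of exon, Scd1 had the highest median and Acaca the lowest in each of the 4 groups. In Xbp1LKO on HFS the libraries of Acaca (1.75 to 1.90 CPM per kb) overlapped those of Acacb (1.44 to 5.76). In Xbp1fl/fl on chow the medians were 1279 CPM per kb for Scd1, 148 for Thrsp, 69.2 for Acly, 54.4 for Mlxipl, 36.8 for Fasn, 35.8 for Me1, 26.3 for Acss2, 16.8 for Elovl6, 15.9 for Acacb and 2.37 for Acaca. Neighbours in this order whose libraries overlapped were Acly and Mlxipl, Fasn and Me1, Me1 and Acss2, and Elovl6 and Acacb. In Xbp1LKO on chow the ranges of Scd1 (median 188 CPM per kb), Mlxipl (85.1) and Thrsp (82.2) overlapped, and Acly was at 21.2. On HFS the Scd1 median was 3766 CPM per kb in Xbp1fl/fl and 760.1 in Xbp1LKO, followed by Thrsp at 189 and 107 and Mlxipl at 71.0 and 74.8. Thrsp and Mlxipl overlapped in Xbp1LKO on HFS. Merged exons count every annotated transcript, so the length of a gene with long rarely used exons is overstated.

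Upstream regulators were read from a list of 17 lipogenic transcription factors and partners, of which 1 was called on chow and none on HFS. That 1 of 17 was lower in Xbp1LKO, beside 3.02% of all genes called lower on chow. The called gene was Insig1, which holds SREBP in the endoplasmic reticulum and is itself a target of SREBP. It read 244, 204 and 213 CPM in Xbp1fl/fl and 98.0 and 72.01 CPM in Xbp1LKO on chow, and fell by 1.37 ± 0.29 on the log2 scale (adjusted p = 0.023). On HFS, Insig1 was at 98.3, 72.9 and 102 CPM against 95.7, 44.7 and 54.3 CPM and overlapped. Srebf1 read 318, 260.1 and 162 CPM against 147 and 52.4 CPM on chow, and 390.0, 599 and 905 CPM against 319.6, 415 and 220.2 CPM on HFS. Its libraries were apart on chow and overlapped on HFS, with log2 differences of -1.31 ± 0.48 (adjusted p = 0.15) and -0.99 ± 0.41 (adjusted p = 0.24). Counts per gene do not separate the SREBP-1a and SREBP-1c transcripts. Nr1h3, which encodes LXR-alpha, and Mlx, the partner of ChREBP, lay at 95.0 to 129 and 28.3 to 38.8 CPM over all 11 libraries, with log2 differences of -0.10 and -0.14 on chow and -0.19 and -0.17 on HFS. The list median was -0.14 on chow and -0.17 on HFS.

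**Figure D4:**
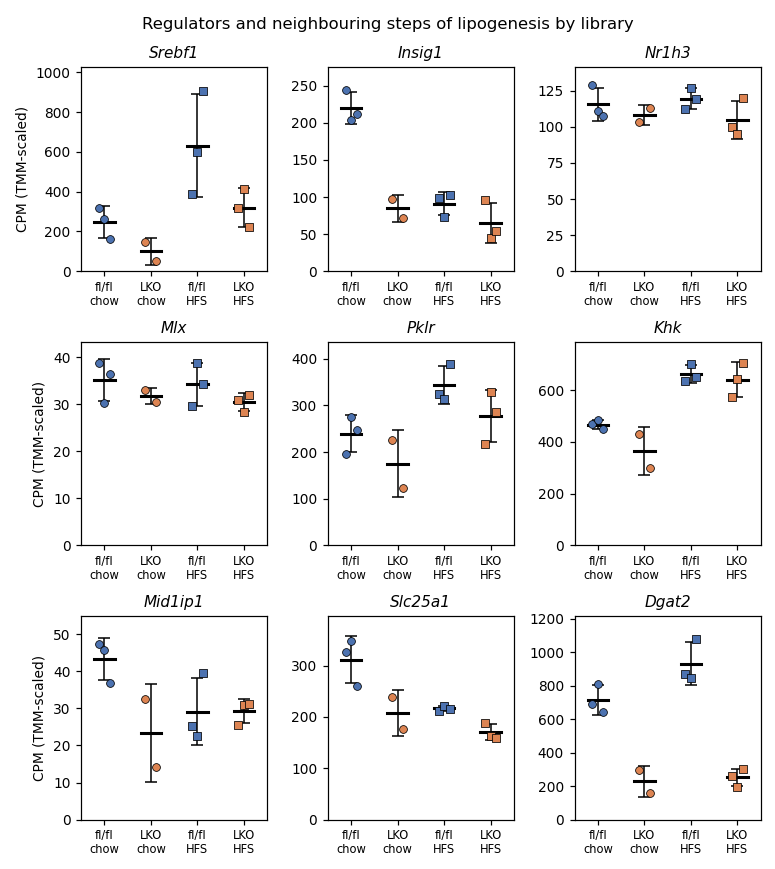
CPM (TMM-scaled, linear axis from 0) of 9 regulators and neighbouring enzymes of lipogenesis, drawn as in the plot of the 10 members, with the group mean and SD in black (n = 3, or 2 for Xbp1LKO on chow). Dgat2 is lower in Xbp1LKO on both diets, and Mlx and Nr1h3 overlap.

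Sugar use feeds ChREBP and lipogenesis, and no gene of a list on both was called lower in Xbp1LKO. The shares of all genes called lower were 3.02% on chow and 2.16% on HFS. The list had 15 tested genes, of glycolysis, fructolysis and others linked to ChREBP, such as Txnip and Pnpla3. None was called on chow (median log2 -0.18) and 1 was called higher on HFS (median -0.01), beside 1.92% of all genes. That gene was Gpd1, which makes glycerol 3-phosphate, at 341, 448 and 452 CPM in Xbp1fl/fl and 625, 869 and 845 CPM in Xbp1LKO (log2 0.91 ± 0.17, adjusted p = 0.014). Pklr, the liver pyruvate kinase and a classical ChREBP target, had log2 differences of -0.45 (adjusted p = 0.37) and -0.31 (adjusted p = 0.55) and overlapped. Khk, the fructokinase, differed by -0.35 (adjusted p = 0.28) and -0.05 (adjusted p = 0.92).

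Among 14 tested genes that supply citrate, NADPH or acetyl-CoA, 1 was called, and it was higher on both diets. The shares of all genes called higher were 1.73% on chow and 1.92% on HFS. Cs, the citrate synthase of mitochondria, read 149, 129 and 127 CPM against 208 and 237 CPM on chow (log2 0.72 ± 0.12, adjusted p = 0.0080). On HFS it read 139.9, 151 and 139 CPM against 195, 219 and 212 CPM (log2 0.54 ± 0.11, adjusted p = 0.020). Slc25a1, which carries citrate to the cytosol where Acly cleaves it, had values of 326, 348 and 259.7 CPM against 239 and 177 CPM on chow. The difference for Slc25a1 was -0.58 ± 0.17 (adjusted p = 0.073) on chow and -0.35 ± 0.15 (adjusted p = 0.25) on HFS, without overlap on either diet.

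A list on the control of acetyl-CoA carboxylase held 12 genes, some of which do not act on the enzyme itself. On each diet 1 was called, as higher, beside 1.73% of all genes on chow and 1.92% on HFS. Trib3, a pseudokinase gene induced by cell stress, was higher in Xbp1LKO on chow, at 31.1 and 117 CPM against 17.2, 16.0 and 15.7 CPM (log2 2.19 ± 0.47, adjusted p = 0.023). Replicate 2, the library with the lowest Fasn and Scd1, had the higher Trib3. Prkab2, a subunit of AMP-activated kinase, was higher on HFS at 2.08, 3.01 and 2.95 CPM against 1.19, 0.865 and 1.03 CPM (log2 1.38 ± 0.29, adjusted p = 0.024). Mid1ip1, which encodes a partner of Thrsp that activates the carboxylase, had log2 differences of -0.89 (adjusted p = 0.15) on chow and 0.004 (adjusted p = 0.997) on HFS.

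The steps after palmitate showed calls in both directions. Among all genes, 3.02% were called lower on chow and 1.73% higher. Of 17 tested desaturation, elongation and acyl-CoA synthetase genes, 3 were called lower on chow and none higher, with a median log2 fold change of -0.36. They were Elovl5, an elongase of polyunsaturated fatty acids, at 307, 302 and 332 CPM against 153 and 85.6 CPM (-1.39 ± 0.27, adjusted p = 0.015), and the acyl-CoA synthetases Acsl3 (-1.01 ± 0.17, adjusted p = 0.0080) and Acsl5 (-1.06 ± 0.23, adjusted p = 0.025). Acsl3 was also lower on HFS than on chow in Xbp1fl/fl, at 15.2 to 18.2 against 27.0 to 31.6 CPM (-0.87 ± 0.15, adjusted p = 0.035). On HFS the list had 2 genes called higher and 1 called lower in Xbp1LKO, beside 1.92% and 2.16% of all genes. Its median was -0.16. Hacd2, a dehydratase of fatty acid elongation, was at 50.1, 51.8 and 50.7 CPM against 31.8, 31.8 and 32.7 CPM (0.66 ± 0.09, adjusted p = 0.0032), and Elovl1 at 47.1 to 54.0 against 31.0 to 38.9 CPM (0.51 ± 0.13, adjusted p = 0.047). Scd3 was lower but did not exceed 0.882 CPM in any library.

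Triglyceride synthesis was represented by 13 tested genes, of which Dgat2 was called lower on both diets. The shares of all genes called lower were 3.02% on chow and 2.16% on HFS. Dgat2, which joins newly made fatty acids to diacylglycerol, read 689.6, 814 and 645 CPM in Xbp1fl/fl and 296 and 162 CPM in Xbp1LKO on chow (log2 -1.64 ± 0.27, adjusted p = 0.0073). On HFS it was at 871, 849 and 1080.0 CPM against 262, 196 and 300.2 CPM (-1.89 ± 0.23, adjusted p = 0.0025). The list medians were 0.04 and -0.14. Gpam, the first enzyme of the pathway, was at 201 to 243 against 151 and 178 CPM on chow, a difference of -0.41 ± 0.13 that did not pass (adjusted p = 0.11), and overlapped on HFS.

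The genes whose profile over the 11 libraries was closest to Fasn were found from the mean absolute difference in log2 CPM, after each gene was centred, among 7495 genes with a mean of at least 10 CPM. They were S100a13 (0.16), Gm8893 (0.17), Paox (0.20), Rdh16f2 (0.20) and Papss1 (0.21). Of the other members Acly ranked 53 (0.26), Acss2 ranked 99 (0.28) and Acaca ranked 143 (0.30), while Scd1, with its wide range, ranked 7435. The closest to Mlxipl were Dcun1d2 (0.07), Ttll4 (0.07), Txlng (0.09), Cnot4 (0.10) and Hnrnph3 (0.10). Every other member was further away, from Elovl6 at rank 3601 (0.27) to Scd1 at rank 7467 (1.34). These distances are descriptions over libraries that share a preparation, and genes that vary little, as Mlxipl did, are close to many others.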

How the data were processed

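RNA-Seq of Percoll-purified mouse hepatocytes was analysed in 11 libraries. The authors deposited whole-number counts per Ensembl gene, neither normalized nor filtered. Per the submitters' processing notes, cutadapt 1.13, STAR, HTSeq 0.6.1p1 and DESeq2 were used with build mm10, whereas the paper's methods name kallisto and tximport for single-end reads of 50 bp; which of these made the deposited counts, and whether strand was used, was not settled here. The labels name a total RNA kit and the methods a stranded mRNA kit. All 37 mitochondrial gene identifiers, tRNA and rRNA genes included, had 0 counts, so CPM are relative to nuclear genes. Symbols came from GENCODE M21 (GRCm38), which held 54079 of 54232 identifiers.

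TMM factors and CPM were computed with edgeR 4.0.16 in R 4.3.3. Genes with low counts were removed (filterByExpr, minimum count 10), and the 4 groups were modelled together over the 11 libraries by quasi-likelihood, with p-values adjusted by the Benjamini-Hochberg method over 13303 genes and a threshold of 0.05. Spread is given as SE of the log2 fold change. Chow libraries are single mice and HFS libraries pools, so p-values measure spread between libraries of differing makeup. Between replicates the chi-square of the counts was 27.9 to 101.6 per degree of freedom, far over counting error, so counting intervals are left out. Groups and replicate numbers came from the sample titles, and same-numbered libraries were not taken as pairs. The name of the file for Xbp1LKO chow replicate 2 carries the number 3, against 2 in its title, which was used; the study states 3 chow animals per genotype, and 2 Xbp1LKO chow libraries were analysed here.

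Alternatives were DESeq2 1.42.0, voom of limma 3.58.1 with quality weights, other scalings and filters, fits to only the groups compared, a replicate block and leaving out each library. The fits were tested on simulated counts. The 10 genes and the 6 pathway lists were chosen with earlier results of these data known. Named in the text are the 10 genes, a fixed set of regulators, genes among the 3 with the smallest p per list and comparison, and the 5 closest to Fasn and to Mlxipl. A gene of the fixed set is not reported here. Scd3 and other genes under 1 CPM are close to the detection limit. The Scd1 promoter and protein sequences were not analysed here.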

Additional observations from a re-analysis of the deposited data

Results flagged for a closer look

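Acaca had diet differences of opposite sign in the 2 genotypes. Each Xbp1fl/fl HFS library, at 38.4 to 41.3 CPM, lay below the Xbp1fl/fl chow mean of 41.4 CPM, while each Xbp1LKO HFS library, at 29.9 to 32.4 CPM, lay above the Xbp1LKO chow mean of 25.9 CPM. The interaction on the log2 scale was 0.31 and did not pass edgeR's quasi-likelihood test (adjusted p = 0.89). The Xbp1LKO chow mean is that of 2 libraries at 33.2 and 18.5 CPM, and without replicate 2 the diet difference in Xbp1LKO was -0.094.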

How the results depend on the processing

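The count of the 10 genes called was 4 for genotype on chow, 1 for genotype on HFS, 1 for diet in Xbp1fl/fl, 0 for diet in Xbp1LKO and 0 for the interaction, when 632, 543, 57, 8 and 0 of all genes were called. RLE size factors and a filter of at least 1 CPM in 3 libraries kept all 5 counts. DESeq2 called 5, 5, 2, 1 and 0 (1115, 987, 175, 210 and 31 of all genes), library totals 5, 2, 1, 0 and 0 (2999, 1483, 58, 10 and 0), voom with quality weights 4, 5, 1, 0 and 0 (410, 1101, 72, 1 and 0), and no filter on low counts 7, 7, 6, 3 and 0 (1507, 1438, 499, 722 and 269). Fits to only the groups compared called 1, 4, 2 and 0 (233, 809, 38 and 0 of all genes), the interaction not being possible there; on chow Acacb alone was then called (adjusted p = 0.045), while Acly, Acss2, Scd1 and Fasn had adjusted p values of 0.056 to 0.080. Leaving out 1 library gave 3 to 4 on chow (326 to 600 of all genes) and 0 to 2 on HFS (184 to 532). It gave 0 for diet in Xbp1fl/fl (6 to 43), 0 for diet in Xbp1LKO (0 to 2) and 0 for the interaction (0). Fits that leave 1 Xbp1LKO chow library are not counted here. Same-numbered libraries did not deviate together (mean correlation -0.0087), and a fit with the replicate number as a block called 4, 3, 1, 0 and 0 (455, 412, 38, 19 and 0 of all genes), adding Acacb and Acss2 on HFS. Both rest on the title's number for Xbp1LKO chow replicate 2, whose file name has another. Where 1 Xbp1LKO chow library was left, it was assumed to vary like the other groups. The cause of these changes was not tested.

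No called gene changed direction. Those that did lay near 0: for genotype on chow, Me1 under library totals (0.32), no filter (0.014), the replicate block (0.082) and voom (0.10), and Elovl6 under library totals (0.10); for genotype on HFS, Mlxipl under library totals (0.23) and voom (0.016) and Elovl6 under library totals (0.18); Elovl6 for diet in Xbp1fl/fl under voom (0.0065); and for the interaction Acacb under the block (0.046) and Thrsp under voom (0.33). With 1 library left out, log2 values that crossed 0 ranged as follows. For diet in Xbp1LKO: Acaca -0.094 to 0.74, Acly -0.73 to 0.45, Elovl6 -0.089 to 0.29, Fasn -0.40 to 0.41, Thrsp -0.49 to 1.57. For the interaction: Acaca -0.051 to 0.79, Acacb -0.69 to 0.33, Elovl6 -0.059 to 0.49, Thrsp -0.83 to 1.24. For diet in Xbp1fl/fl: Elovl6 -0.40 to 0.14. For genotype on HFS: Elovl6 -0.28 to 0.27, Mlxipl -0.14 to 0.14. For genotype on chow: Me1 -0.16 to 0.18.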
